A study of Mus with 7 samples.

Results

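The genes described here are 5 CXC chemokines, Cxcl1, Cxcl2, Cxcl3, Cxcl10 and Cxcl16, taken by symbol from the 31053 features that were counted. The choice was made with earlier results of these data known. These genes are 5 of the 14 CXC chemokine genes with a row in the count tables. The cells were fetal liver-derived macrophages (FLMs), wild-type mouse macrophages grown out of dissociated fetal liver in GM-CSF (30 ng/mL) and kept by repeated passage, a self-renewing culture. By the study's own account such cells resemble inflammatory macrophages from monocytes and need not match those of any tissue. All 7 conditions shared the GM-CSF. Con was collected in 10% fetal bovine serum (FBS) before any treatment. For the other 6 conditions the serum was lowered to 0.25% and the cells received for 24 h either 25 µM docosahexaenoic acid (DHA, an omega-3 fatty acid) carried on 8.3 µM bovine serum albumin (BSA), or 8.3 µM BSA alone as vehicle (Veh). Veh.LPS.0 and DHA.LPS.0 were collected at that point, while lipopolysaccharide (LPS, 20 ng/mL, the bacterial ligand of the receptor TLR4) was given for 1 h to Veh.LPS.1 and DHA.LPS.1 and for 4 h to Veh.LPS.4 and DHA.LPS.4. Each condition is 1 single-cell library, so no difference below has a replicate check. Intervals are exact 95% intervals that cover counting error only and understate the error wherever few cells hold most of a gene's UMIs (unique molecular identifiers, 1 for each captured mRNA).

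Chemokines are secreted proteins that guide leukocytes along a gradient, and the CXC family is named for the spacing of its first cysteines. Cxcl1, Cxcl2 and Cxcl3 are close relatives that call neutrophils through the receptor Cxcr2, and their genes are classical targets of NF-kB, the factor released by TLR4 signalling. Cxcl10 attracts activated T cells and NK cells through Cxcr3 and is induced by interferons. Cxcl16 differs from the others in being made as a membrane protein, a ligand of Cxcr6 and a scavenger receptor for oxidised lipoprotein, which the protease Adam10 cuts free. On the GRCm38 (mm10) assembly, Cxcl3 (chr5:90786101-90788093), Cxcl1 (chr5:90891245-90893121) and Cxcl2 (chr5:90903899-90905938) lie in 1 cluster with Cxcl5, Ppbp, Pf4 and Cxcl15. Cxcl10 (chr5:92346638-92348889) lies further along the same chromosome, beside Cxcl9 and within the span of Art3. Cxcl16 (chr11:70454389-70459984) overlaps the lower coordinates of Zmynd15 (chr11:70459433-70466204). How many reads of these overlapping genes could be assigned to the wrong one was not tested.

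Cells with over 20000 UMIs, at least 2000 detected genes and under 20% of UMIs from mt- (mitochondrial) genes were used, 11640 in all and 692 to 3073 a library, with 22045775 to 125716982 UMIs a library. The libraries did not lose cells evenly. Barcodes with a mt- share of at least 20% were 29.0% in Con, 35.8% to 54.7% in the Veh libraries and 74.4% to 80.0% in the DHA libraries, so each DHA library keeps 12.1% to 18.5% of its barcodes. Median depth of the kept cells ran from 29369 UMIs (Veh.LPS.1) to 56239 (Veh.LPS.4). 16 barcode sequences occurred in more than 1 library, at most 4 for a pair. Macrophage identity held throughout, since all 9 macrophage markers were detected in every library at a summed 5817 to 7089 CPM (counts per 1000000 UMIs of the library). The neutrophil list, with 3 to 5 of its 6 markers at 0 UMIs, summed to 0.057 to 6.99 CPM, and the 4 lymphoid markers were at 0 everywhere. Cells were split by whether they had a UMI of the proliferation genes Mki67 or Top2a after random thinning of each cell to 20000 UMIs. Cells with no Mki67 or Top2a UMI are meant in that sense throughout, and can hold one at full depth. They were 4.33% of Con, 12.5% to 25.5% of the libraries at 0 and 1 h, 49.8% of Veh.LPS.4 and 40.9% of DHA.LPS.4. The median log2 ratio of 8 proliferation genes to 0 h was -1.89 in Veh.LPS.4 and -0.89 in DHA.LPS.4, against -0.36 and -0.29 over all features. A gene is called higher or lower where its CPM ratio passes 1.5-fold and it has a UMI in 25% or more of the cells in 1 of the libraries compared. Shares and medians of all features are over the features that reach that share of cells, 7672 to 8477 in a comparison. Counts of members are out of all 5, although Cxcl1 and Cxcl3 never reach it.

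Cxcl2 was the one abundant member. It stood at 4.96 CPM in Con, 112 in Veh.LPS.0 and 235 in DHA.LPS.0, then at 7543 in Veh.LPS.1, 7011 in DHA.LPS.1, 13361 in Veh.LPS.4 and 11764 in DHA.LPS.4. The 4 LPS libraries lay far above the others, and no pair of neighbours in this order had overlapping intervals. At 4 h of LPS in vehicle the 5 members took up 1.35% of all UMIs in the library, and 99.1% of that was Cxcl2. In Con they took up 0.00184%, of which Cxcl16 was the largest part (41.9%).

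**Figure D1:**
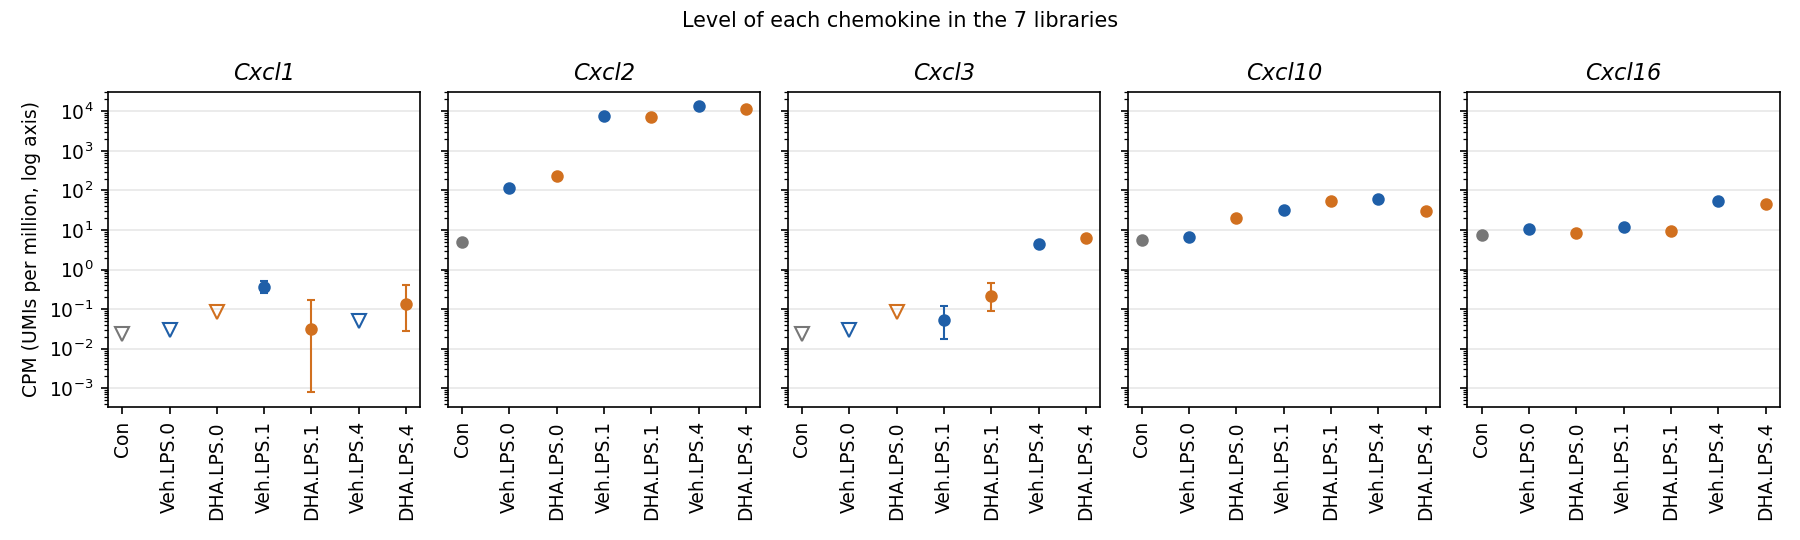
CPM (log axis) of each chemokine in each of the 7 libraries, grey for Con, blue for Veh and orange for DHA. Points carry exact Poisson intervals, mostly smaller than the symbol, and open triangles mark libraries with 0 UMIs, drawn at the level 3 UMIs would give. Cxcl2 climbs from 4.96 to 13361 CPM while Cxcl1 stays at or under 0.360 CPM, and Cxcl16 is raised at 4 h.

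Counted in log2 fold, most of the LPS response of Cxcl2 was in place by 1 h. Veh.LPS.1 was 67.1-fold (65.9 to 68.4) above Veh.LPS.0, and Veh.LPS.4 was 1.77-fold above Veh.LPS.1, which made 119-fold over 4 h. In DHA the same steps were 29.9-fold and 1.68-fold, 50.1-fold in all. The fold differed with the cells counted. In cells with no Mki67 or Top2a UMI, which held more of it at 0 h, the step to 1 h was 26.9-fold in vehicle and 23.1-fold in DHA, and in cells with such a UMI 84.4-fold and 33.1-fold. Over all deposited barcodes the DHA step was 51.3-fold. Leaving out in each library the 1% of cells with most Cxcl2 UMIs, a choice made after seeing the data, it was 165-fold in vehicle and 62.0-fold in DHA. In the barcodes with a mt- share of at least 20% the 4 h level in vehicle was 0.993 times the 1 h level, and in DHA it was 1.26 times. Among the 5 members Cxcl2 alone was called higher at 1 h in vehicle, where 4.15% of all features were (5.11% with TMM scaling, trimmed mean of M values), and again in DHA (4.66%, with TMM 6.01%). Features lower at 1 h were 4.24% in vehicle (3.12% with TMM) and 4.97% in DHA (3.26% with TMM). With TMM the Cxcl2 step to 1 h was 71.6-fold in vehicle and 32.3-fold in DHA. The step from 1 h to 4 h was then 2.24-fold and 1.92-fold.

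Without LPS, Cxcl2 came from a minority of cells. In the following, each cell was thinned at random to 20000 UMIs so that cells and libraries could be set side by side. In Veh.LPS.0, 82.3% of cells then had no Cxcl2 UMI, where a Poisson count with the same mean would leave 13.6% empty, and the top 10% of cells held 96.1% of the UMIs. DHA.LPS.0 had 74.8% empty cells, and its 5 highest cells alone held 44.9% of all Cxcl2 UMIs before thinning. With LPS, every kept cell of all 4 libraries had at least 1 Cxcl2 UMI. The files hold no second cell type in which free RNA could be measured, so what part of a low count came from other cells' RNA was not tested.

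In kept cells the mean of Cxcl2 was higher at 4 h than at 1 h while the median was not. Vehicle cells had a mean of 152 and a median of 150 UMIs at 1 h, with 10% of cells below 66 and 10% above 242. At 4 h the mean was 259 but the median 136, and the 10% and 90% points had moved apart to 18 and 688. The coefficient of variation went from 0.449 to 1.08, and the Fano factor (variance over mean, 1 for pure counting) from 30.6 to 300. DHA cells did the same, from a mean of 142, a median of 139 and a coefficient of variation of 0.518 to a mean of 236, a median of 139 and a coefficient of 0.980.

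**Figure D2:**
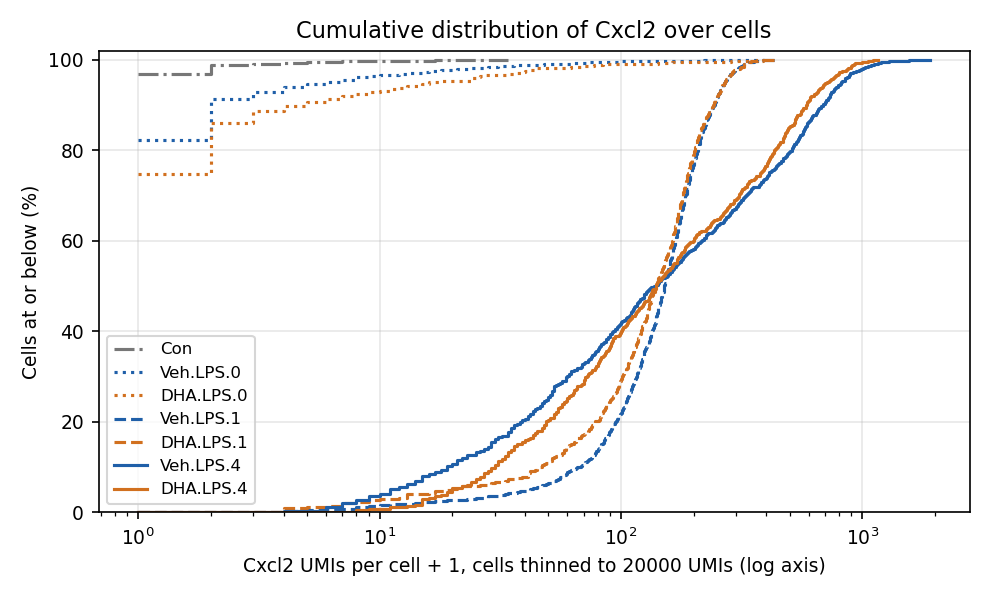
Share of cells (%) at or below each number of Cxcl2 UMIs, on a log axis of UMIs + 1, with every cell thinned to 20000 UMIs. The curves of 1 h (dashed) and 4 h (solid) cross near their medians of 136 to 150 UMIs, and the 4 h curves are far flatter. TMM factors were not applied.

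The 4 h population was set against the limits of the 1 h population of the same treatment, on thinned counts without TMM factors. Of the 993 vehicle cells at 4 h, 31.8% (28.9 to 34.8) fell below the 1 h 10% point and 30.4% (27.6 to 33.4) lay above the 1 h 99% point of 323 UMIs. In DHA, 17.9% (15.1 to 21.0) of 692 cells fell below their own 1 h 10% point of 44.8 UMIs, and 28.3% (25.0 to 31.8) lay above 323 UMIs. Cells beyond the upper limit were thus about as frequent in DHA as in vehicle, while the lower limits differ between the treatments and those shares cannot be compared directly. At 4 h the lower tail was also lower in vehicle, with a 25% point of 49 UMIs against 59 in DHA.

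Cxcl2-high and Cxcl2-low cells at 4 h, split at those limits, differed in other early inflammatory genes. This is a description of cells of 1 library each, with no test. In vehicle, the 302 high cells held 621 Cxcl2 UMIs on average and the 316 low cells 30.7. The cytokine gene Tnf averaged 87.4 UMIs in high and 15.9 in low cells, and Ccl3, a CC chemokine for monocytes and T cells, 389 and 107. The interleukin-1 genes followed the same order, Il1b with a ratio of 6.04 and Il1a (7.82 and 0.845 UMIs) with 9.26. In DHA the high to low ratios were 5.31 for Tnf, 4.72 for Ccl3, 9.41 for Il1b and 11.6 for Il1a. Smaller ratios in vehicle and DHA were those of Nfkbiz (3.16 and 3.36), Ccl2 (2.08 and 2.55), Ccl4 (2.07 and 2.54) and Acod1 (1.56 and 2.19).

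Other genes shared that order weakly or not at all. Cxcl16 had a high to low ratio of 1.10 in vehicle and 0.978 in DHA, and the proliferation genes Mki67 and Top2a lay between 0.831 and 1.09. Ifit1, an interferon-induced gene, was lower in the high cells (0.583 against 1.70 UMIs in vehicle, 0.214 against 0.339 in DHA). Other interferon-induced genes varied. In vehicle and DHA the high to low ratios were 0.897 and 0.999 for Isg15, and 0.502 and 1.22 for Rsad2. Cxcl10 was higher in the high cells, with ratios of 1.31 and 1.55. Median totals were 53665 UMIs in low and 58502 in high vehicle cells and 30284 and 30817 in DHA. Median mt- shares were 7.21% and 6.52% in vehicle and 7.26% and 6.28% in DHA. Across all 4 h cells, Pearson's r of Cxcl2 with Ccl3 was 0.68 in vehicle (993 cells) and 0.69 in DHA (692), and with Tnf 0.64 in each, between genes counted in the same cell. At 1 h the values for Tnf were 0.27 in vehicle and 0.31 in DHA.

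**Figure D3:**
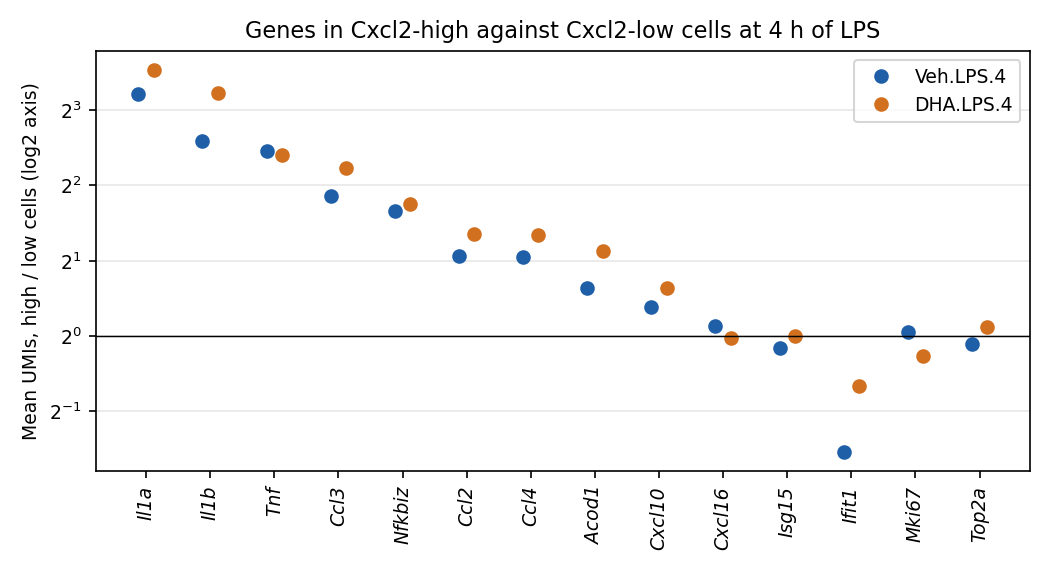
Mean thinned UMIs in Cxcl2-high cells over that in Cxcl2-low cells (log2 axis) for 14 genes at 4 h of LPS, in vehicle (blue) and DHA (orange). Il1a, Il1b, Tnf and Ccl3 sit at 3.62 to 11.6, while Cxcl16, Isg15, Mki67 and Top2a sit between 0.831 and 1.10.

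Cxcl1, neighbour of Cxcl2 on the chromosome, was close to silent. It had 0 UMIs in Con, Veh.LPS.0, DHA.LPS.0 and Veh.LPS.4, where 3 UMIs would give 0.0239 to 0.0856 CPM. In Veh.LPS.1, 34 UMIs were counted (0.360 CPM, 0.249 to 0.503), at least 11.8-fold above the level that 3 UMIs would give in Veh.LPS.0. Those UMIs came from 6 of 3073 cells and 20 of them from 1 cell. DHA.LPS.1 had 1 UMI and DHA.LPS.4 had 3. Cxcl2 made up at least 99.9% of the UMIs of Cxcl1, Cxcl2 and Cxcl3 together in every library. Reads that match more than 1 gene are not counted by Cell Ranger, and how many reads of these related genes that removed was not tested.

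Cxcl3 appeared late and in few cells. It had 0 UMIs in the 3 libraries without LPS, 5 UMIs in Veh.LPS.1 and 7 in DHA.LPS.1. At 4 h it reached 4.33 CPM (3.82 to 4.90) in Veh.LPS.4 and 6.26 CPM (5.26 to 7.40) in DHA.LPS.4, at least 143-fold and at least 73.1-fold above the level of 3 UMIs before LPS. Only 4.33% and 5.64% of those cells had a UMI, and 5 cells held 51.6% and 58.0% of the UMIs. Cxcl3 and Cxcl2 thus separated in time. At 1 h Cxcl2 was within 1.77-fold of its 4 h level in both treatments (2.24-fold with TMM), while Cxcl3 was at most 0.220 CPM. Across the cells of 4 h their correlation was 0.01 in vehicle and 0.13 in DHA, too weak in counts this sparse to be a finding.

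Cxcl10, the interferon-induced member, ran from 5.73 CPM in Con and 6.64 in Veh.LPS.0 to 31.6 in Veh.LPS.1 and 61.8 in Veh.LPS.4. With DHA it stood at 20.0 CPM before LPS, 53.3 at 1 h and 29.8 at 4 h. In vehicle the level was thus highest at 4 h and in DHA at 1 h, and the intervals of Veh.LPS.1 and DHA.LPS.4 overlapped. The steps in vehicle were 4.75-fold (4.36 to 5.18) by 1 h and 9.31-fold (8.56 to 10.1) by 4 h. In DHA they were 2.67-fold (2.44 to 2.92) by 1 h and 1.49-fold (1.34 to 1.66) by 4 h, so that DHA.LPS.4 was 0.559 times DHA.LPS.1. In cells with no Mki67 or Top2a UMI the 4 h step in DHA turned to 0.794 (0.614 to 1.02). In vehicle it was 20.8-fold (13.5 to 33.7), from 21 UMIs at 0 h. Without the 1% of cells with most Cxcl10 UMIs, 7 cells that held 74.1% of those in DHA.LPS.0, the DHA steps were 5.22-fold by 1 h and 2.85-fold by 4 h.

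Cxcl10 was carried by a small fraction of cells at all times. After thinning, a UMI was found in 3.44% of Con cells, 7.01% in Veh.LPS.0, 6.16% in DHA.LPS.0, 14.6% in Veh.LPS.1, 12.7% in DHA.LPS.1, 18.7% in Veh.LPS.4 and 15.6% in DHA.LPS.4. The intervals of DHA and Veh overlapped at each time, while the number of UMIs in a positive cell differed more. Without thinning the 4 h shares were 31.2% in vehicle and 18.9% in DHA, at median depths of 56239 and 29631 UMIs, so Cxcl10 passed the 25% of cells needed for a call in no library but the deepest, Veh.LPS.4. Positive cells averaged 1.64 UMIs in Veh.LPS.0 and 7.19 in DHA.LPS.0, then 4.08 and 8.47 at 1 h, and 6.37 and 4.41 at 4 h. The top 10% of cells held at least 92.0% of the Cxcl10 UMIs in every library, and cells with at least 10 UMIs were 0.0403% of Veh.LPS.0, 1.00% of DHA.LPS.0, 1.56% of Veh.LPS.1, 2.77% of DHA.LPS.1, 3.22% of Veh.LPS.4 and 1.01% of DHA.LPS.4.

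In most libraries cells with Cxcl10 also held more UMIs of interferon-induced genes, though in Veh.LPS.0 Isg15 averaged 0.0402 UMIs in positive and 0.0399 in negative cells. In DHA.LPS.0 the 43 positive cells averaged 2.84 Ifit1 UMIs and the other 655 cells 0.0137. In Veh.LPS.4, Ifit1 averaged 3.14 UMIs in 186 positive and 0.472 in 807 negative cells, and Isg15, a ubiquitin-like interferon-induced protein, 2.32 and 0.673. In DHA.LPS.4 the values for Ifit1 were 0.907 and 0.0445. Cxcl2 differed between the libraries in this split. In DHA.LPS.0 it averaged 26.6 UMIs in positive and 3.11 in negative cells, and was found in 51.2% and 23.5% of them. In Veh.LPS.0 the means went the other way, 0.684 and 2.098 UMIs, while the shares were 17.8% and 17.7%. These means lean on few cells. Before thinning, 5 cells held 44.9% of the Cxcl2 UMIs in DHA.LPS.0 and 25.3% in Veh.LPS.0. At 4 h Cxcl2 averaged 343 and 240 UMIs in positive and negative cells of Veh.LPS.4 and 238 and 235 in DHA.LPS.4. Pearson's r between Cxcl10 and Ifit1 across cells was 0.90 in DHA.LPS.0, where 5 cells held 62.9% of the Cxcl10 UMIs, and 0.30 in Veh.LPS.4.

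**Figure D4:**
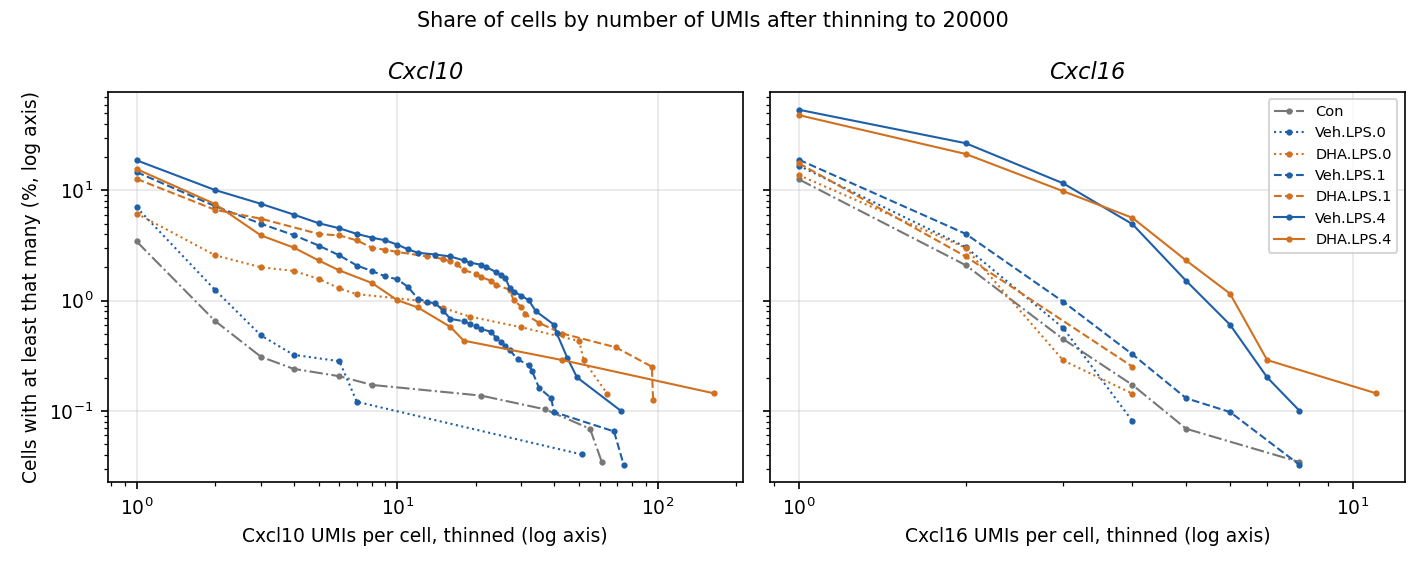
Share of cells (%, log axis) with at least a given number of UMIs (log axis) of Cxcl10 (left) and Cxcl16 (right), each cell thinned to 20000 UMIs. Cxcl10 has a long tail that reaches 164 UMIs in 1 cell of DHA.LPS.4, whereas Cxcl16 does not pass 11 UMIs in a cell and its 4 h curves lie above the others.

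Cxcl16, the membrane-bound member, passed 1.5-fold only at 4 h. It stood at 7.69 CPM in Con, 10.4 in Veh.LPS.0, 8.48 in DHA.LPS.0, 12.3 in Veh.LPS.1 and 9.56 in DHA.LPS.1, and at 53.9 in Veh.LPS.4 and 44.5 in DHA.LPS.4. The first 5 libraries lay within 7.69 to 12.3 CPM and both 4 h libraries stood clear of them. Veh.LPS.4 was 5.18-fold (4.82 to 5.56) above Veh.LPS.0 and DHA.LPS.4 5.25-fold (4.60 to 6.0) above DHA.LPS.0. At 1 h the ratios were 1.18 and 1.13, the interval of the latter including 1, and among cells with no Mki67 or Top2a UMI they were below 1 (log2 ratio -0.10 and -0.14).

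The spread of Cxcl16 over cells was small beside that of Cxcl10 at a similar mean. In Veh.LPS.4 Cxcl16 had a mean of 0.996 UMIs and a Fano factor of 1.53, and Cxcl10 1.19 UMIs and 23.6. In DHA.LPS.4 the values were 0.893 UMIs and 1.89 for Cxcl16, and 0.688 UMIs and 63.2 for Cxcl10. The last value depends mostly on 1 cell of 692, which had 164 Cxcl10 UMIs. It was not computed without that cell. The Fano factor grows with the mean, so it was not set against that of Cxcl2. The coefficient of variation of Cxcl16 at 4 h was 1.24 in vehicle and 1.46 in DHA. At so low a mean counting error makes up much of it, so it was not set against that of Cxcl2 either. Before thinning, a Cxcl16 UMI was found in 28.4% of vehicle cells at 0 h and in 77.4% at 4 h, and in 27.1% and 60.0% of DHA cells. At equal depth the shares were 16.8% and 53.9% in vehicle and 13.8% and 48.1% in DHA. With the other members Cxcl16 had correlations across cells of at most 0.08 in size at 4 h.

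Over 4 h of LPS in vehicle, 3 of the 5 members (Cxcl2, Cxcl10 and Cxcl16) were called higher, against 10.2% of all features (21.7% with TMM), while 38.3% were lower (21.1% with TMM). Cxcl10 was not called over all barcodes or in cells with no Mki67 or Top2a UMI, where neither library had it in 25% of cells. From 1 h to 4 h it was the same 3 of 5 higher and 0 of 5 lower, against 7.98% and 29.3% of features (16.6% and 16.3% with TMM). In DHA, 2 of 5 (Cxcl2 and Cxcl16) were called higher over 4 h, against 9.64% (18.7% with TMM), while 33.6% of features were lower (20.7% with TMM). From 1 h to 4 h in DHA again these 2 were higher and 0 were lower, against 6.97% and 23.3% (11.4% and 15.5% with TMM). The median feature moved by -0.36 (log2) in vehicle and -0.29 in DHA over 4 h on total UMIs, and by 0.07 and 0.02 with TMM, so 4 h ratios read somewhat higher relative to the typical gene. Cxcl1 and Cxcl3 never had a UMI in 25% of cells and could not be called, nor could Cxcl10 in any comparison without Veh.LPS.4.

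DHA was then set against vehicle at each time. Before LPS, Cxcl2 was 2.09 times vehicle (2.03 to 2.15), Cxcl10 3.01 times (2.70 to 3.35) and Cxcl16 0.815 times (0.714 to 0.928). Cxcl2 was the 1 member called higher and 0 were called lower, where 1.08% and 0.949% of features were. Cxcl2 could be called only through DHA.LPS.0, with a UMI in 37.2% of cells against 24.8% in Veh.LPS.0. Median depths were 46928 and 36897 UMIs, and at equal depth the shares were 25.2% and 17.7%. The raised values of Cxcl2 and Cxcl10 both depended on which cells were counted. In cells with no Mki67 or Top2a UMI, which were 12.5% of Veh.LPS.0 and 25.5% of DHA.LPS.0, Cxcl2 was 295 CPM in vehicle and 320 in DHA, a ratio of 1.08 (1.03 to 1.14). In cells with such a UMI it was 88.7 and 208, a ratio of 2.35 (2.27 to 2.43). In the barcodes with a mt- share of at least 20%, Cxcl2 was lower in DHA, 0.718 times vehicle (0.681 to 0.756). For Cxcl10, the 1% of cells with most of its UMIs (7 in DHA.LPS.0 and 25 in Veh.LPS.0) were then left out of each library. This brought the log2 ratio from 1.59 to 0.50. In cells with no Mki67 or Top2a UMI the Cxcl10 ratio was 9.34 (5.88 to 15.5). That ratio rests on 144 UMIs in 178 DHA.LPS.0 cells and 21 UMIs in 309 Veh.LPS.0 cells. In the barcodes of high mt- share the Cxcl10 ratio was 1.21, with an interval that included 1.

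At 1 h of LPS, 0 members were called higher and 0 lower, against 1.33% and 1.73% of features. Cxcl2 was 0.929 times vehicle (0.925 to 0.934) and Cxcl16 0.779 times (0.685 to 0.885). Cxcl10 was 1.69 times vehicle (1.59 to 1.79), past the fold limit, but with a UMI in 18.5% and 18.6% of cells, 1.07 times (0.967 to 1.18) in the barcodes of high mt- share and 2.94 times (2.52 to 3.45) in cells with no Mki67 or Top2a UMI. Cxcl3 was 4.16 times vehicle on 7 and 5 UMIs (1.14 to 16.6), but 6 of the 7 UMIs in DHA.LPS.1 came from 1 cell.

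At 4 h, Cxcl10 was the 1 member called lower, at 0.482 times vehicle (0.443 to 0.524), and 0 were called higher. It could be called only through Veh.LPS.4, the deepest library, with a UMI in 31.2% of cells against 18.9% in DHA.LPS.4. At equal depth the shares were 18.7% and 15.6%, both under the 25% needed. Of all features, 2.42% were lower and 2.22% higher (3.23% and 1.33% with TMM). Cxcl10 stayed below vehicle in cells with no Mki67 or Top2a UMI (0.357, 0.291 to 0.434), in cells with one (0.483, 0.440 to 0.530) and in the barcodes with a mt- share of at least 20% (0.373, 0.345 to 0.403). Without the 1% of cells with most Cxcl10 UMIs the log2 ratio was -1.33, against -1.05 with them. Cxcl2 was 0.880 times vehicle (0.877 to 0.884), Cxcl16 0.826 times (0.768 to 0.888) and Cxcl3 1.44 times (1.17 to 1.78), which turned to a log2 ratio of -0.15 in cells with no Mki67 or Top2a UMI. Proliferation genes moved with this comparison too, 7 of 8 being called higher in DHA.LPS.4 on total UMIs. Their median log2 ratio was 0.66, near the 1.5-fold limit. The median over all features was 0.08 on total UMIs and -0.03 with TMM.

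The lower Cxcl2 of DHA cells with LPS did not hold outside the kept cells. Over all deposited barcodes the log2 ratio of DHA to vehicle was 0.31 at 1 h and 0.17 at 4 h, against -0.11 and -0.18 in kept cells. In the barcodes with a mt- share of at least 20% Cxcl2 was 13202 CPM in DHA and 12308 in vehicle at 1 h, and 16618 and 12220 at 4 h. Cxcl16 in DHA was below vehicle at all 3 times in kept cells, by log2 ratios of -0.30, -0.36 and -0.28. In the barcodes of high mt- share its ratios were 0.882, 1.10 and 1.09, with intervals that included 1, although over all barcodes together it was also below vehicle. The part of cell loss in these differences was not tested.

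**Figure D5:**
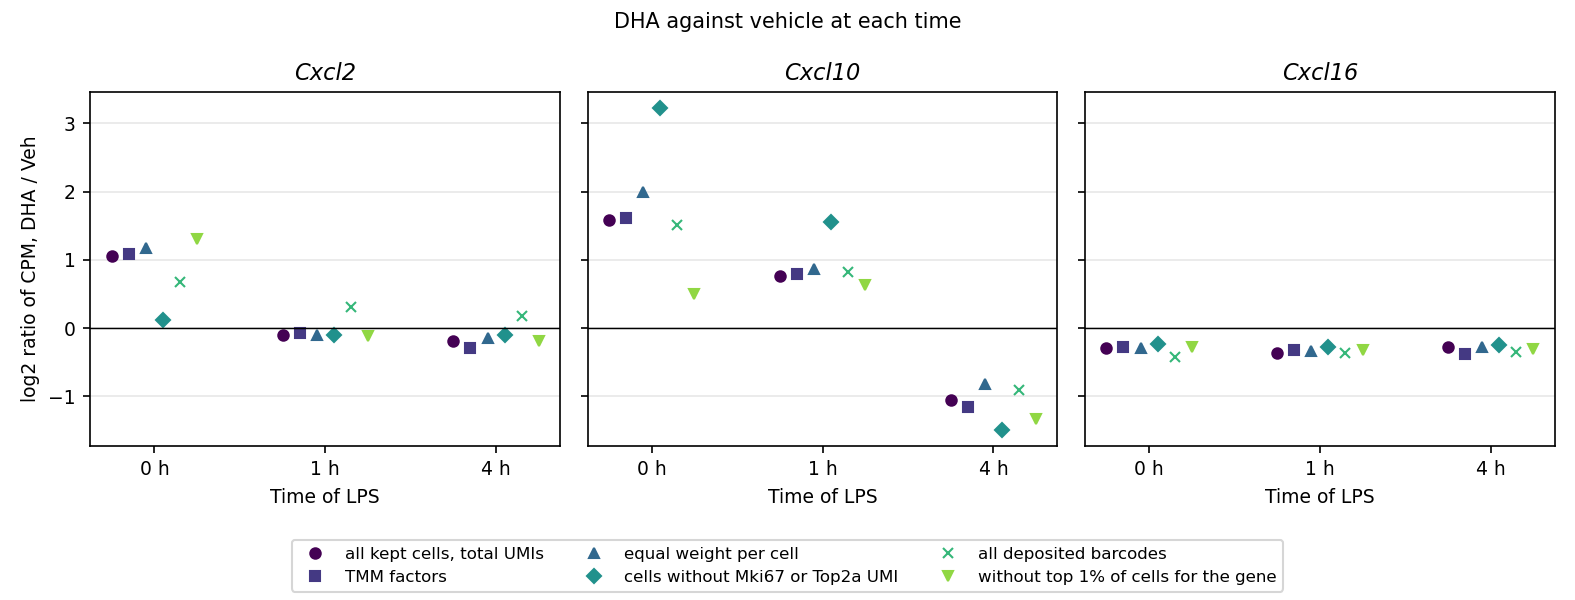
Log2 ratio of DHA to vehicle for Cxcl2, Cxcl10 and Cxcl16 at 0, 1 and 4 h of LPS, with a symbol for each of 6 ways of counting, which leave out the barcodes of high mt- share taken alone. All symbols of Cxcl10 lie above 0 at 0 and 1 h and below 0 at 4 h, those of Cxcl16 lie below 0, and those of Cxcl2 at 0 h spread from 0.11 to 1.31.

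The step from full serum to 24 h of reduced serum with BSA came before any LPS or DHA. Cxcl2 was 22.7-fold (20.9 to 24.6) higher in Veh.LPS.0 than in Con, with a UMI in 24.8% of cells, just short of the 25% needed for a call, and in 5.30% in Con. Cxcl10 was 1.16 times Con (1.04 to 1.29) and Cxcl16 1.35 times (1.24 to 1.48). So 0 members were called higher and 0 lower, against 9.31% and 7.76% of features. Cells with no Mki67 or Top2a UMI held more Cxcl2 in both libraries, 38.7 CPM in Con and 295 in Veh.LPS.0, than cells with such a UMI, 3.59 and 88.7.

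Other CXC chemokines were nearly absent. Of the 9 further genes with a row, Cxcl5, Cxcl12, Cxcl13 and Cxcl15 had 0 UMIs in all 7 libraries, and Cxcl9, like Cxcl10 a Cxcr3 ligand, did not pass 0.0171 CPM. Cxcl14, a chemokine of epithelia, was the exception in Con, at 15.5 CPM against 1.73 in Veh.LPS.0, 0.112 times Con (0.0948 to 0.130). It was the 1 gene of the list that could be called in any comparison. Pf4, platelet factor 4, had a UMI in at most 6.92% of cells, so it could not be called. It stood at 3.37, 2.86 and 3.90 CPM against 1.15, 1.10 and 1.13 in vehicle at 0, 1 and 4 h, ratios of 2.92, 2.60 and 3.46 whose intervals all lay above 1. None of the 8 CXC receptor genes passed 1.41 CPM or 25% of cells. Cxcr2 lay at 0.169 to 1.07 CPM and Cxcr6, the receptor for Cxcl16, did not pass 0.0683 CPM.

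Of the 6 proteases that release or trim CXC chemokines, Adam10 and Adam17 were detected widely. Adam10 was 161 CPM in Con, 101 in Veh.LPS.0, 91.0 in Veh.LPS.1 and 59.4 in Veh.LPS.4, the last 0.589 times Veh.LPS.0, which with TMM becomes 0.795 and is no longer past 1.5-fold. Its DHA values were 103, 91.7 and 60.8 CPM. Cxcl16 was thus higher and Adam10 lower at 4 h than at 0 h. Of all features 38.3% were lower past 1.5-fold in vehicle (21.1% with TMM) and 33.6% in DHA (20.7% with TMM). Adam17 was 146, 174 and 183 CPM in vehicle and 141, 168 and 175 in DHA, at 4 h of LPS 1.25 times 0 h in vehicle and with TMM past the limit at 1.68. Mmp12, a macrophage elastase that also trims chemokines, was 3.87, 0.719 and 28.7 CPM in vehicle and 10.3, 22.2 and 45.7 in DHA. It did not have a UMI in 25% of cells in any comparison and could not be called.

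Genes of the NF-kB system were higher with LPS in both treatments. In vehicle at 1 h, 8 of the 9 measured of 10 subunits and IkB proteins were called higher and 0 lower (median log2 ratio 1.27, against -0.10 over all features), and at 4 h 9 of 10 (1.74, against -0.36), where 4.15% and 10.2% of all features were higher. In DHA these were 7 of 9 (median 1.32, against -0.12) and 9 of 9 (1.77, against -0.29), where 4.66% and 9.64% were higher. Nfkbiz, the inducible IkB protein that acts as a coactivator in the nucleus, was 6.75, 510 and 185 CPM in vehicle and 6.65, 411 and 128 in DHA, and so was highest at 1 h, unlike Cxcl2. Nfkbia, the inhibitor IkB alpha, went from 221 CPM to 1503 and 1002 in vehicle. Between DHA and vehicle 0 of the list were called on total UMIs in either direction at 0, 1 and 4 h. Of all features, 0.949% to 2.42% were called in a direction in these comparisons. With TMM, Nfkbiz at 4 h (185 CPM in vehicle and 128 in DHA) is past 1.5-fold lower in DHA, where 3.23% of features were lower. The median log2 ratios of the list were -0.18, -0.19 and -0.10, against -0.05, -0.05 and 0.08 over all features.

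Factors of chemokine mRNA decay and stability differed among themselves. Zfp36 (tristetraprolin), which binds AU-rich elements, was 38.7, 511 and 119 CPM in vehicle and 40.7, 448 and 70.6 in DHA. At 4 h it was 0.594 times vehicle in DHA (0.562 to 0.627), the 1 factor called lower. Zfp36l2, its relative, was 1.57 times vehicle, the 1 called higher, which with TMM is 1.46 and within the limit. In that comparison 7 of the 8 factors were measured. Of all features, 2.42% were lower and 2.22% higher there (3.23% and 1.33% with TMM). Zc3h12a (regnase-1), an endonuclease for inflammatory mRNA, was 10.8, 74.1 and 109 CPM in vehicle and 9.31, 72.5 and 118 in DHA. Of the 8 factors, 2 were called higher at 1 h and 0 lower in both treatments (median log2 ratio -0.06 in vehicle and -0.05 in DHA, against -0.10 and -0.12 over all features), where 4.15% and 4.66% of features were higher. At 4 h against 0 h, 2 were higher and 2 lower in vehicle, and 3 higher and 1 lower in DHA, where 10.2% and 9.64% of features were higher and 38.3% and 33.6% lower.

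In a list of interferon signalling genes taken as upstream of Cxcl10, some differed between DHA and vehicle. Of its 12 genes, 10 were measured before LPS and 1 was called higher in DHA, 3 of 10 were higher at 1 h, and 5 of 11 were lower at 4 h, with 0 called the other way each time (median log2 ratios -0.04, 0.23 and -0.23, against -0.05, -0.05 and 0.08 over all features). Before LPS 1.08% of features were higher, at 1 h 1.33% were, and at 4 h 2.42% were lower (3.23% with TMM). A gene could enter these counts through only the library where it was higher or which was deeper. The same holds for the shares of all features, and neither was counted at equal depth. Irf7, a factor of the interferon loop, was 8.47, 4.92 and 32.6 CPM in vehicle and 17.5, 13.8 and 11.3 in DHA. Stat2 at 4 h was 19.5 CPM in vehicle and 7.17 in DHA, and Irf9 47.4 and 25.5, both factors that act downstream of the type I interferon receptor. Ifnb1, the interferon-beta gene itself, was 3.36 CPM in Veh.LPS.4 and 0.499 in DHA.LPS.4, and at or under 0.0856 elsewhere. Whether any of these genes acted on Cxcl10 in these cells was not tested.

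Over the 7 libraries, which share conditions and are few, the genes most like each member by Pearson's r of log2(CPM + 1) were listed as a description. For Cxcl2 they were Plekhm3 (0.99), Plekho2 (0.99) and Fndc3b (0.99), and for Cxcl16 Cpd (1.00), Slc12a4 (1.00) and A230028O05Rik (1.00). Cpd, carboxypeptidase D, had 61.3 CPM in Veh.LPS.1 and 355 in Veh.LPS.4. For Cxcl10 they were Aff1 (0.98), Rusc2 (0.96) and Zbtb21 (0.95), and for Cxcl3 Rnf11 (1.00), Piezo1 (1.00) and Tln1 (1.00). For Cxcl1, at 0 UMIs in 4 libraries, they were Faf2 (0.91), Dnttip1 (0.89) and Senp2 (0.88), which rests on a few UMIs. Among the members themselves Cxcl3 and Cxcl16 were most alike (0.97), then Cxcl2 and Cxcl10 (0.92), and the pairing follows the late and the early genes.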

How the data were processed

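Deposited matrices of UMI counts, 1 for each of 7 libraries (10x Chromium 3′ kit, v3 chemistry), were read as the authors deposited them: raw counts per gene and barcode, aligned to mm10. The submitters' processing notes and the file headers give Cell Ranger 3.1.0. The 3′ kit counts the end of a transcript, so levels were not divided by length. Cells were kept as in the study's filter (over 20000 UMIs, at least 2000 genes, under 20% mt- UMIs). Doublets were not called, and leaving out cells with over 2 times the median UMIs was an alternative. Counts were summed per library. With 1 library per condition no test was run: CPM have exact Poisson intervals, shares exact binomial (Clopper-Pearson) intervals, and ratios of CPM intervals from the exact binomial split of UMIs, all 95%. A count of 0 was bounded by 3 UMIs. Cells were thinned without replacement to 20000 UMIs (seed 1). The split of cells on Mki67 and Top2a used thinned counts, and CPM within each part used all UMIs. TMM factors came from edgeR 4.0.16 and size factors from DESeq2 1.42.0, with no model fitted. Computation used Python 3.11.15, numpy 2.4.6 and scipy 1.17.1. The interval and call code was checked on simulated counts. Positions are from RefSeq's GRCm38 gene table. The members, gene lists and named genes (members, fixed lists and the 3 genes most like each member among features with a UMI in 25% of cells of a library) were chosen with earlier results of these data known. Of the marker lists, mast cell, stromal, erythroid, endothelial and dendritic cell genes summed to at most 1.60 CPM in any library, and the hepatocyte list to 5.45 to 7.59 CPM.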

Additional observations from a re-analysis of the deposited data

Results flagged for a closer look

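In UMIs summed over kept cells, Cxcl10 went in opposite directions between DHA and vehicle at different times. Its log2 ratio of DHA to vehicle was 1.59 before LPS, 0.76 at 1 h and -1.05 at 4 h. The value at 4 h lay below that at 0 h by a difference of -2.64 and below that at 1 h by a difference of -1.81 (-2.77 and -1.96 with TMM factors). With 1 library per condition the difference between times was not tested. The sign at each time was the same under all 8 planned ways of counting, which draw on overlapping cells. It was also the same without the 1% of cells with most Cxcl10 UMIs. Those were 7 to 31 cells a library and held 40.3% to 74.1% of the UMIs in these 6 libraries. The barcodes with a mt- share of at least 20%, taken alone, were not among the 8 ways. In them the ratio was 1.21 at 0 h and 1.07 at 1 h, with intervals that included 1, and 0.373 at 4 h. The share of cells with a Cxcl10 UMI at equal depth did not change direction. It was lower in DHA each time, with overlapping intervals (6.16% against 7.01%, 12.7% against 14.6%, 15.6% against 18.7%).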

How the results depend on the processing

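The 8 planned ways of scaling or choosing cells kept the direction of all 31 member ratios with at least 10 UMIs in each library, apart from 2 over all deposited barcodes (Cxcl2, DHA against vehicle at 1 and 4 h) and 4 in cells with no Mki67 or Top2a UMI (Cxcl16 at 1 h against 0 h in both treatments, Cxcl10 at 4 h against 0 h in DHA, and Cxcl3 in DHA against vehicle at 4 h). Counts of called members changed by over 1.5 times as follows. With no limit on the share of cells, 3 were higher in Veh.LPS.1 and 2 in DHA.LPS.1 against 0 h, 1 was lower in Veh.LPS.4 and 1 in DHA.LPS.4 against 1 h, and 1 was higher in Veh.LPS.0 against Con. Without that limit DHA against vehicle gave 2 higher at 0 h, and 2 higher and 1 lower at 1 h. With a 2-fold limit 1 was higher from 1 h to 4 h in vehicle and 1 in DHA. Over all barcodes, DHA.LPS.4 had 1 higher against 0 h and 0 against 1 h, and 0 lower against vehicle. In cells with no Mki67 or Top2a UMI, or with a 50% limit on cells, DHA gave 0 higher at 0 h and 0 lower at 4 h. Veh.LPS.0 against Con gave 1 higher in cells with no Mki67 or Top2a UMI and 1 with under 10% mt- UMIs, where Cxcl2 passed 25% of cells. Smaller changes were a loss of Cxcl10 from the 3 higher in Veh.LPS.4, against 0 h and against 1 h, over all barcodes, in cells with no Mki67 or Top2a UMI and with a 50% limit, and a gain of Cxcl3 at 4 h in both treatments with no limit. At 4 h the call of Cxcl10 as lower in DHA was lost to the limit on cells, since its log2 ratio was -1.49 in cells with no Mki67 or Top2a UMI and -0.91 over all barcodes.

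The number of all features called moved by over 1.5 times in 16 of 16 counts with no limit on cells (then 5.19% to 38% of the features tested) and 16 of 16 at 2-fold (0.13% to 14.6%). It moved for 8 with a 50% limit on cells (0.685% to 22.4%), 6 over all barcodes (5.29% to 18.4%), 2 in cells with no Mki67 or Top2a UMI (1.93% and 2.09%), 6 with TMM (1.33% to 21.7%) and 7 with DESeq2 factors (1.45% to 22.4%). With the other limits and cells the number of features tested changed too, so the shares moved by other factors. Another thinning seed left all 35 shares of positive cells within their intervals, and thinning to 10000 UMIs or not at all moved a share by up to 19.0 or 23.6 points. Leaving out the 1% of cells with most UMIs of a gene, an alternative chosen after seeing the data, kept the direction of all 30 ratios it could be run on and 21 of them within 1.5-fold. No paired analysis was possible because each condition is 1 library. Depth limits Cxcl1 and Cxcl3, which had at most 254 UMIs a library.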
